A study of Mus musculus with 8 samples.

Results

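The 10 genes read here encode enzymes that clear hydrogen peroxide and lipid peroxides: the 6 peroxiredoxins Prdx1 to Prdx6, catalase (Cat), and the glutathione peroxidases Gpx1, Gpx3 and Gpx4. They were taken by symbol from a table of 24454 gene rows, and all 10 were present and passed the filter on low counts. The question read from the rule that picked them is which of these enzymes each sorted population transcribes. RNA reads were counted in 8 pools of yolk sac cells that had been sorted from C57BL/6 mouse embryos at stage E11.5. All embryos were miR144-451+/GFP: 1 copy of this erythroid microRNA locus carried green fluorescent protein (GFP), in the endothelial pools too. The double positive pools were VE-Cadherin positive and GFP positive (replicates 7 and 8, 24 cells each). The erythroid pools were VE-Cadherin negative and GFP positive (replicates 4 to 6, 25 cells each). The endothelial pools were VE-Cadherin positive and GFP negative (replicates 1 to 3, 25 cells each). The labels do not say whether pools came from separate embryos, so the p-values describe spread among these pools, and that spread may be technical.

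Peroxide forms in every cell from superoxide, and in red cells also when oxygenated hemoglobin oxidises. Peroxiredoxins reduce it with a reactive cysteine and are mostly recharged by thioredoxin, catalase splits it with a heme group, and glutathione peroxidases reduce it with glutathione, those listed here through a selenocysteine. The enzymes sit in different places: Prdx1, Prdx2 and Prdx6 mainly in the cytosol, Prdx3 in mitochondria, Prdx4 in the secretory pathway, Prdx5 in several compartments, catalase mostly in peroxisomes, Gpx1 in cytosol and mitochondria. Gpx3 is secreted, and Gpx4 acts on lipid peroxides in membranes. In mature red cells Prdx2, Gpx1 and catalase are the known peroxide removers, and Prdx2 is among the most abundant cytosolic proteins after hemoglobin.

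Total counts were 4637930 and 4818074 in the double positive, 5291843 to 7618444 in the erythroid and 3723128 to 4439165 in the endothelial libraries. The 10 genes together took 0.832% and 0.765% of all counts in the double positive libraries, 0.775% to 0.825% in the erythroid and 0.255% to 0.269% in the endothelial libraries. Cdh5, the gene of VE-Cadherin, averaged 51.0 ± 7.19 CPM in double positive libraries (SD, n = 2), had no count in any erythroid library, and averaged 209 ± 32.0 CPM in endothelial libraries (n = 3). CPM is the read count normalised to library size, with TMM factors as scaling between libraries. Globin rows took 8.86% and 14.0% of double positive counts and 54.5% to 56.5% of erythroid counts, but 0.00223% to 0.00404% of endothelial counts. All 12 visceral endoderm markers read (the epithelium of the yolk sac) were detected in the double positive libraries, summing to 90966 and 91113 CPM. They summed to 10.1 to 22.2 CPM in erythroid libraries, where Apoa4, Lrp2, Amn, Serpina1b and Foxa2 were at 0, and to 30.1 to 45.9 CPM in endothelial libraries, where Lrp2, Serpina1b, Cldn6 and Foxa2 were at 0. All 12 macrophage markers were at 0 in erythroid libraries. They summed to 106 and 176 CPM in double positive libraries while endothelial replicates 1, 2 and 3 had sums of 1426, 3472 and 1584 CPM. Sums of the 8 megakaryocyte and platelet markers were 642 to 1001 CPM in endothelial libraries. They were 38.5 to 53.6 CPM in erythroid and 11.1 and 77.2 CPM in double positive libraries. The 10 mesenchyme and mesothelium markers summed to 326 and 348 CPM in double positive libraries. Those sums were at most 0.326 CPM in erythroid and 3.39 to 6.52 CPM in endothelial libraries. In such pools fewer cells of a type and less RNA per cell cannot be told apart.

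The erythroid libraries were dominated by a pair of these enzymes, Gpx1 and Prdx2. Both transcripts were about as far above the endothelial level as each other, and both were intermediate in the double positive libraries. Both were higher in double positive replicate 8 than in replicate 7, as the summed erythroid markers were (137946 and 79043 CPM). Prdx1, Prdx3, Prdx4, Prdx6 and Gpx4 were also higher in replicate 8, while Prdx5, Cat and Gpx3 were lower there. The part of erythroid RNA was not tested. The double positive libraries were led by Gpx3, which had no count in any erythroid library. The endothelial libraries spread their reads over Gpx3, Gpx1 and Prdx1. Set within each library, and counted per kilobase of merged exons so that genes of different length can be compared, Gpx1 made up 19.6% ± 3.87 of the reads of the 10 genes in double positive libraries (SD, n = 2), 59.8% ± 1.22 in erythroid libraries (SD, n = 3) and 18.7% ± 2.54 in endothelial libraries (n = 3). Prdx2 made up 7.80% ± 2.27 in double positive, 23.1% ± 0.365 in erythroid and 7.38% ± 1.86 in endothelial libraries. Gpx3 made up 46.3% ± 8.11 in double positive libraries, 0% in erythroid libraries and 22.4% ± 3.71 in endothelial libraries. Prdx1 made up 8.02% ± 0.592 in double positive, 1.78% ± 0.135 in erythroid and 18.8% ± 2.41 in endothelial libraries. Catalase was a small share in each, at 3.09% ± 0.109, 1.64% ± 0.145 and 4.27% ± 1.07 in double positive, erythroid and endothelial libraries. These shares do not depend on how libraries are scaled against each other, but they do depend on the gene lengths used. By coding length Prdx2 was 37.7% ± 0.521 and Gpx1 45.4% ± 1.06 in erythroid libraries (SD, n = 3). Prdx2 was then 13.3% ± 3.58 and Prdx1 13.6% ± 0.686 in double positive libraries (SD, n = 2). In endothelial libraries Prdx1 then led at 29.4% ± 3.05, ahead of Gpx3 at 18.5% ± 3.30 and Gpx1 at 13.8% ± 2.18 (SD, n = 3).

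**Figure D1:**
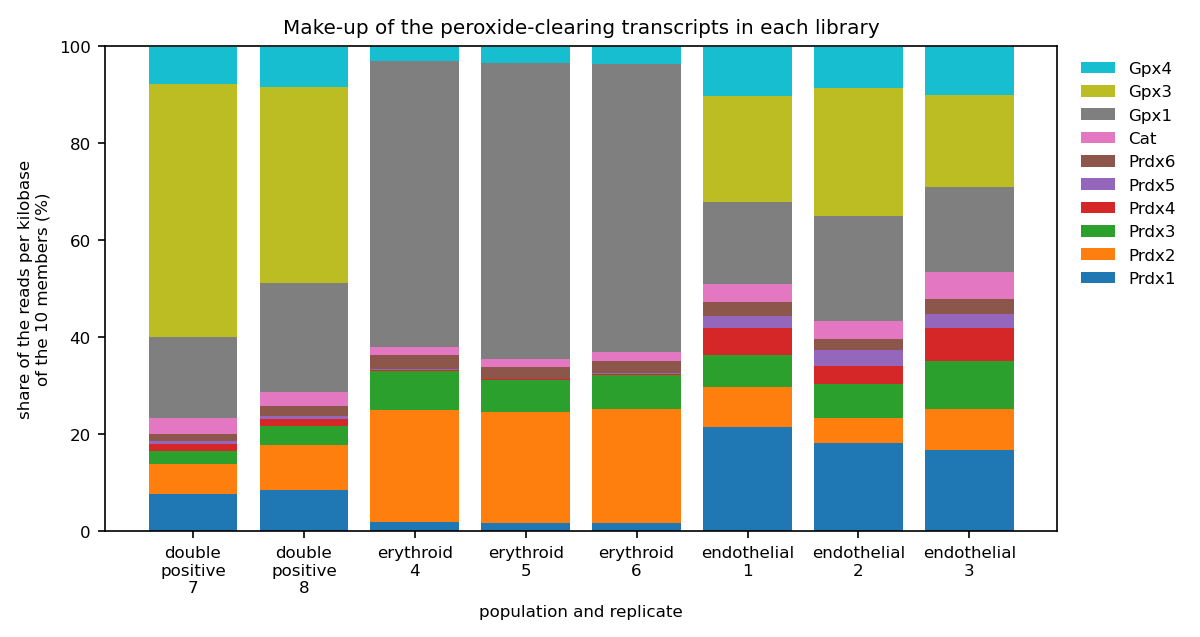
Stacked bars give, for each library, the share (%) of the reads per kilobase of merged exons of the 10 genes that fell on each gene. Gpx1 and Prdx2 filled most of the 3 erythroid bars, where Gpx3 was at 0, and Gpx3 was the largest part of both double positive bars.

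In the comparison of erythroid with endothelial libraries 8 of the 10 genes passed an adjusted p under 0.05 (edgeR's quasi-likelihood test, Benjamini-Hochberg over 12136 genes), 6 higher and 2 lower in erythroid libraries. Over all tested genes 41.0% passed, 14.4% higher and 26.6% lower. Libraries did not overlap for 9 of the 10, against 50.8% of all tested genes. The median log2 difference was 1.86 over the 10 genes and −0.36 over all tested genes. Between double positive and endothelial libraries 8 of 10 were higher and 0 were lower, against 14.6% higher and 6.92% lower among all genes (21.6% in either direction). Libraries did not overlap for 9 of the 10, against 57.5% of all, and the median log2 differences were 1.81 and 0.06. The double positive libraries were higher than the erythroid libraries for 3 of the genes and lower for 4, against 31.5% higher and 10.6% lower among all genes (42.0% in either direction), with medians of 0.14 and 0.71. Here too 9 of the 10 did not overlap, against 67.5% of all. Library size alone, which takes no account of the globin share, moved the median of all genes by −1.54, −0.63 and 0.90 in these comparisons. Under it, the calls among the 10 genes were 4 higher and 4 lower, 7 higher and 0 lower, and 6 higher and 4 lower in the same order of comparisons.

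**Figure D2:**
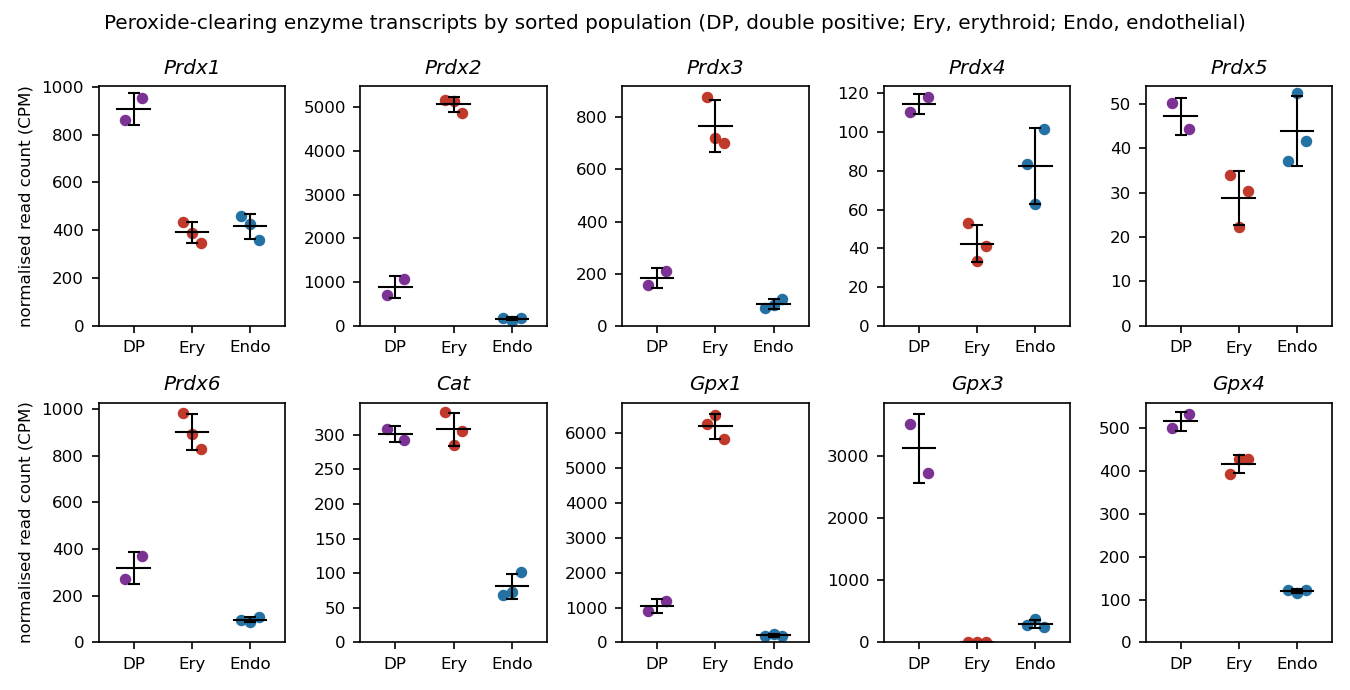
Each panel gives 1 gene, with a point per library in CPM, a line at the population mean and bars of 1 SD; axes start at 0 and differ between panels. The erythroid points lie above both other populations for Prdx2, Prdx3, Prdx6 and Gpx1, and at 0 for Gpx3.

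Gpx1, the main soluble glutathione peroxidase (chromosome 9, 108338903 to 108340343, plus strand, GRCm38), was the most abundant of the 10 in erythroid libraries. It stood at 903 and 1194 CPM in double positive replicates 7 and 8, at 6246, 6526 and 5814 CPM in erythroid replicates 4, 5 and 6, and at 174, 241 and 179 CPM in endothelial replicates 1, 2 and 3. The 3 populations did not overlap, with erythroid highest and endothelial lowest. It was 31.3-fold higher in erythroid than in endothelial libraries (log2 difference 4.97, SE 0.19, adjusted p = 5.81e-07). The double positive level was 5.29-fold above endothelial (adjusted p = 5.36e-05) and 5.91-fold below erythroid libraries (adjusted p = 3.03e-05, edgeR).

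Prdx2, the cytosolic peroxiredoxin of red cells (chromosome 8, 84969587 to 84974834, plus strand), followed the same order. It stood at 703 and 1065 CPM in double positive libraries, at 5169, 5151 and 4872 CPM in erythroid libraries and at 180.3, 123 and 185 CPM in endothelial libraries. No library of one population reached the range of another. It was 31.1-fold higher in erythroid than in endothelial libraries (log2 difference 4.96, SE 0.23, adjusted p = 1.52e-06). The double positive level was 5.42-fold above endothelial (adjusted p = 0.000136) and 5.73-fold below erythroid libraries (adjusted p = 8.43e-05, edgeR). The gene overlaps Rnaseh2a by 181 bases and Junb by 351 bases on the opposite strand, and the strand setting of the counting is not given in the sources used here. Reads in those overlaps cannot be told apart. Rnaseh2a and Junb drew 3032 and 926 counts over the 8 libraries, and Prdx2 drew 8903 in double positive, 53352 in erythroid and 3268 in endothelial libraries.

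The double positive level of Gpx1 and Prdx2 was 16.9% and 17.5% of the erythroid level, while that of Hbb-y, the embryonic beta-type globin, was 11.8% and that of Klf1, an erythroid transcription factor, 3.77%. The endothelial level of Gpx1 and Prdx2 was 3.199% and 3.22% of the erythroid level, where Hbb-y was 0.00217% and Klf1 was at 0. As a percentage of the erythroid level, the endothelial level was higher for both enzymes than for Hbb-y. Hbb-y was chosen after its values were seen, and the source of the endothelial reads was not tested.

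Prdx1 and Prdx2 are close relatives in the same compartment, and their balance differed between populations. Prdx1 (chromosome 4, 116685544 to 116700822, plus strand) stood at 861 and 953 CPM in double positive libraries, at 434, 391 and 348 CPM in erythroid libraries and at 461, 428 and 361 CPM in endothelial libraries. The erythroid and endothelial ranges overlapped, and the double positive libraries stood above both. The erythroid minus endothelial log2 difference was −0.09 (95% interval −0.41 to 0.23, adjusted p = 0.66), but it was −1.64 under library size alone and passed there (adjusted p = 2.46e-05). It was higher in double positive libraries, 2.18-fold above endothelial (adjusted p = 0.00143) and 2.32-fold above erythroid libraries (adjusted p = 0.000385, edgeR).

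Per kilobase, Prdx2 reads were 0.815 and 1.12 times the Prdx1 reads in double positive libraries, 11.9, 13.2 and 14.0 times in erythroid libraries, and 0.390, 0.288 and 0.513 times in endothelial libraries. The ratio was highest in the erythroid libraries and below 1 in each endothelial library. Its mean log2 was −0.07 ± 0.32 in double positive (SD, n = 2), 3.697 ± 0.119 in erythroid (SD, n = 3) and −1.37 ± 0.42 in endothelial libraries (n = 3). The erythroid minus endothelial difference was 5.07, a 33.6-fold difference in ratio. Double positive libraries lay 1.30 above endothelial and 3.77 below erythroid libraries on the log2 scale (−3.77). Each of these 3 differences had p = 0.1 by an exact two-sided permutation test, the smallest p that 3 against 3 or 2 against 3 libraries allow, and no populations overlapped. Among the 6 peroxiredoxins, Prdx2 took 33.6% ± 4.09 of the reads per kilobase in double positive libraries (n = 2), 65.7% ± 2.13 in erythroid libraries (n = 3) and 16.2% ± 2.65 in endothelial libraries (n = 3). Prdx1 took 35.2% ± 3.51, 5.07% ± 0.278 and 42.0% ± 6.19 in double positive, erythroid and endothelial libraries. By the longest transcript, the order in double positive libraries turned, with Prdx2 at 40.8% ± 4.49 and Prdx1 at 30.03% ± 3.35.

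**Figure D3:**
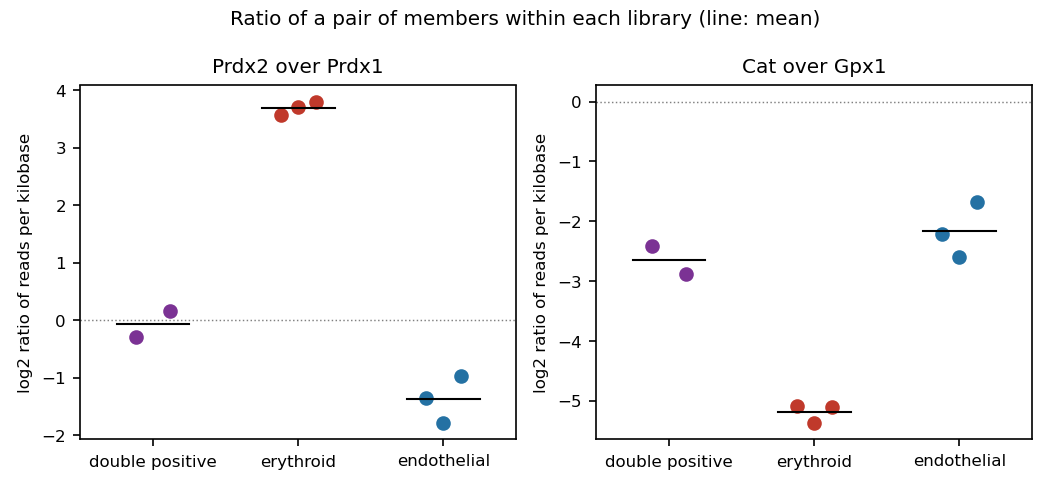
Points give, for each library, the log2 ratio of reads per kilobase of Prdx2 over Prdx1 (left) and of Cat over Gpx1 (right), with a line at the population mean and a dotted line at equal reads. Prdx2 exceeded Prdx1 by 11.9 to 14.0 times in erythroid libraries and was below it in all 3 endothelial libraries, while Cat lay furthest below Gpx1 in the erythroid libraries.

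The mitochondrial and the 1-cysteine enzyme were also erythroid-high, by less. Prdx3, the mitochondrial peroxiredoxin (chromosome 19, 60864051 to 60874556, minus strand), stood at 155 and 209 CPM in double positive libraries, at 879.6, 719.6 and 700.4 CPM in erythroid libraries and at 69.5, 78.7 and 105 CPM in endothelial libraries. The populations did not overlap. It was 9.10-fold higher in erythroid than in endothelial libraries (adjusted p = 8.29e-06), and double positive libraries were 4.202-fold below erythroid libraries (adjusted p = 0.000201, edgeR). Double positive libraries were 2.17-fold above endothelial libraries (adjusted p = 0.00745, edgeR), a call that ended without double positive replicate 8 (log2 difference 0.87, adjusted p = 0.0701) and under library size alone (0.47, adjusted p = 0.117).

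Prdx6, which has a single catalytic cysteine and is recharged by glutathione (chromosome 1, 161240112 to 161251219, minus strand), stood at 272 and 369 CPM in double positive, 982, 891 and 828 CPM in erythroid and 94.3, 88.3 and 108 CPM in endothelial libraries. The order of populations was the same as for Prdx3, again without overlap. It was 9.30-fold higher in erythroid than in endothelial libraries (adjusted p = 2.38e-06). In double positive libraries it was 3.31-fold above endothelial (adjusted p = 0.000232) and 2.81-fold below erythroid libraries (adjusted p = 0.000295, edgeR). The annotated near-copy Prdx6b, 90.1% identical over 1444 bases, had 6 counts over the 8 libraries.

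Prdx4 and Prdx5 had their lowest levels in erythroid libraries. Prdx4, the peroxiredoxin of the endoplasmic reticulum (chromosome X, 155323918 to 155340754, minus strand), stood at 111 and 118 CPM in double positive, 52.9, 33.6 and 41.1 CPM in erythroid and 83.4, 62.7 and 102 CPM in endothelial libraries. It was lowest in erythroid libraries, 1.94-fold below endothelial (adjusted p = 0.0133), and double positive libraries were 2.68-fold above erythroid libraries (adjusted p = 0.0033, edgeR). The double positive minus endothelial log2 difference of 0.47 (95% interval −0.14 to 1.08) did not pass (adjusted p = 0.267, edgeR) and was −0.17 under library size alone. Prdx5 (chromosome 19, 6906697 to 6910106, minus strand) averaged 47.2 ± 4.14 CPM in double positive (SD, n = 2), 28.9 ± 6.05 CPM in erythroid (SD, n = 3) and 43.8 ± 7.87 CPM in endothelial libraries (n = 3), and it passed in no comparison with TMM factors in edgeR. Its erythroid minus endothelial log2 difference was −0.60 (95% interval −1.21 to 0.01, adjusted p = 0.107), and it passed with DESeq2 (−0.78, adjusted p = 0.0244), RLE factors (−0.78, adjusted p = 0.0438) and library size alone (−2.14, adjusted p = 0.000229). The double positive minus erythroid difference of 0.71 (95% interval 0.03 to 1.38, adjusted p = 0.0851, edgeR) passed under library size alone (1.62, adjusted p = 0.00202). Prdx5 overlaps Trmt112 on the opposite strand by 409 bases, and the 1138 Trmt112 counts over the 8 libraries compare with 479, 309 and 861 Prdx5 counts in the double positive, erythroid and endothelial libraries.

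Catalase, a heme enzyme (chromosome 2, 103453849 to 103485160, minus strand), had overlapping levels in double positive and erythroid libraries. It stood at 309 and 293 CPM in double positive, 333, 285 and 306 CPM in erythroid and 68.4, 72.7 and 102 CPM in endothelial libraries. The double positive points lay inside the erythroid range, and the endothelial libraries lay below all others. It was 3.80-fold higher in erythroid than in endothelial libraries (log2 difference 1.93, SE 0.18, adjusted p = 5.75e-05, edgeR), but not past the threshold under library size alone (0.38, adjusted p = 0.0851). In double positive libraries it was 3.71-fold above endothelial libraries (adjusted p = 0.000295, edgeR). The double positive minus erythroid log2 difference was −0.04 (95% interval −0.48 to 0.40, adjusted p = 0.908, edgeR), and it was 0.88 under library size alone (adjusted p = 0.00547).

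Set against Gpx1 in the same library, catalase was lowest in erythroid libraries. Gpx1 reads per kilobase were 5.31 and 7.40 times the Cat reads in double positive libraries, 34.0, 41.5 and 34.5 times in erythroid libraries and 4.61, 6.01 and 3.19 times in endothelial libraries. The mean log2 ratio of Cat to Gpx1 was −2.65 ± 0.34 in double positive (SD, n = 2), −5.19 ± 0.16 in erythroid (SD, n = 3) and −2.15 ± 0.46 in endothelial libraries (n = 3). The erythroid minus endothelial difference was −3.03 and the double positive minus erythroid difference 2.54, each with p = 0.1, the smallest possible, by the exact permutation test. Between double positive and endothelial libraries the difference of −0.49 had p = 0.4 by the same exact test, and those libraries overlapped.

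Gpx3, the secreted glutathione peroxidase (chromosome 11, 54902453 to 54910377, plus strand), separated the erythroid pools from the VE-Cadherin positive pools. It had 3512 and 2730.4 CPM in double positive libraries, 0 counts in each of the 3 erythroid libraries, and 281, 369 and 245 CPM in endothelial libraries. A count of 0 over the erythroid libraries allows up to 0.285 CPM, taking 3 counts over the group as the floor and counting error only. For bounds against that floor, counts were summed over each population (31771 in double positive and 5908 in endothelial libraries). The sums were divided by the summed library sizes after TMM scaling. The erythroid level of Gpx3 was at least 1041-fold lower than the endothelial level (adjusted p = 3.27e-06, edgeR). Gpx3 was at least 10978-fold higher in double positive than in erythroid libraries (adjusted p = 3.1e-06, edgeR). Double positive libraries were 10.5-fold above endothelial libraries (log2 difference 3.39, SE 0.22, adjusted p = 0.000129, edgeR). The 12 visceral endoderm markers moved with this difference, summing to 90966 and 91113 CPM in double positive and 30.1 to 45.9 CPM in endothelial libraries. So did the 10 mesenchyme and mesothelium markers, at 326 and 348 CPM in double positive and 3.39 to 6.52 CPM in endothelial libraries. The part of either set in the difference was not tested. In the endothelial libraries Gpx3 was highest in replicate 2, as were the macrophage markers and the megakaryocyte and platelet markers. Between replicates 1 and 3, Gpx3 was higher in replicate 1, where both marker sums were lower. The part of either marker set was not tested. Without replicate 2, Gpx3 was still at 0 in erythroid and at 281 and 245 CPM in endothelial libraries.

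Gpx4, the lipid peroxide enzyme (chromosome 10, 80047166 to 80056439, plus strand), varied little within populations. It stood at 500.2 and 533 CPM in double positive, 392.5, 429 and 428 CPM in erythroid and 124, 115 and 123 CPM in endothelial libraries. It was 3.46-fold higher in erythroid than in endothelial libraries (log2 difference 1.79, SE 0.12, adjusted p = 8.29e-06, edgeR), a call that ended under library size alone (0.24, adjusted p = 0.0967). Double positive libraries were 4.29-fold above endothelial libraries (adjusted p = 1.79e-05, edgeR). Double positive over erythroid, the log2 difference of 0.31 (95% interval 0.02 to 0.60) missed the threshold (adjusted p = 0.079, edgeR), and it passed with DESeq2 (0.36, adjusted p = 0.00723), limma-voom (0.32, adjusted p = 0.0208), RLE factors (0.36, adjusted p = 0.0438) and library size alone (1.22, adjusted p = 0.000109). The annotation lists processed copies of Gpx4 (Gpx4-ps2, 99.7% identical over 733 bases), of Prdx1 (Gm21399, 98.3% over 597 bases) and of Prdx2 (Tdpx-ps1, 96.3% over 597 bases), so the counts of these 3 genes are uncertain by the reads a counting step splits or discards.

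**Figure D4:**
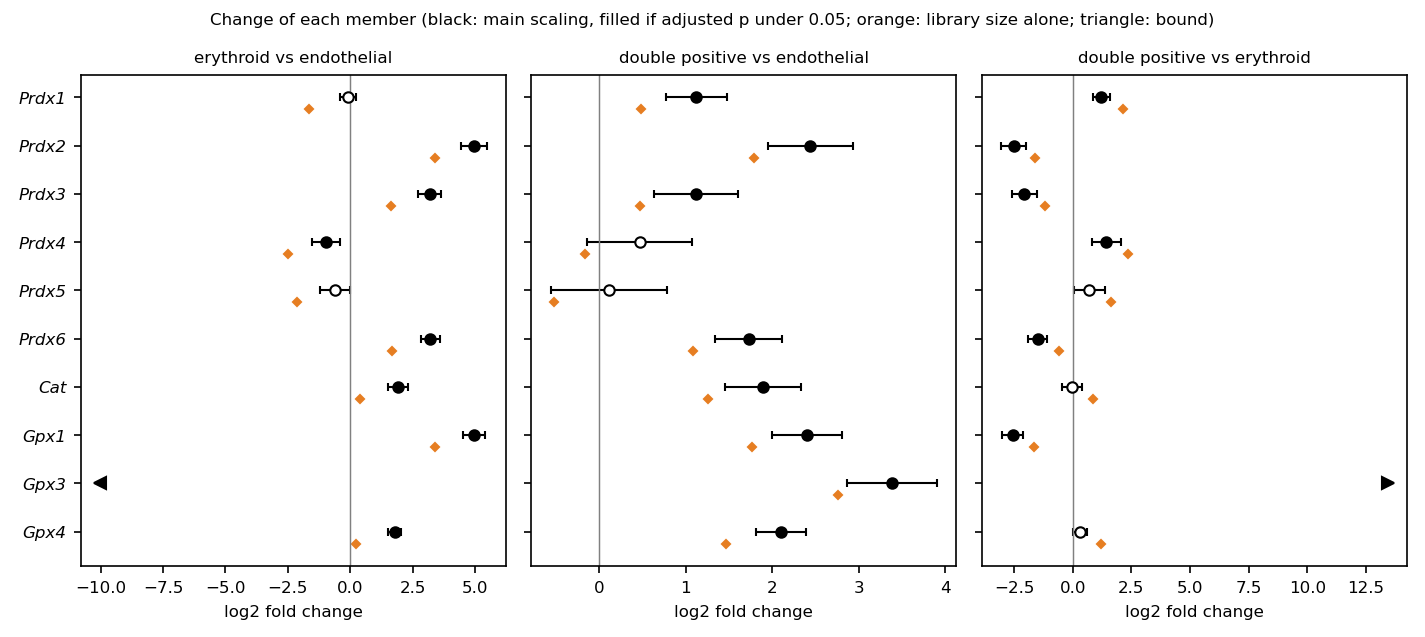
Panels give the log2 fold change of each gene in the 3 comparisons, with 95% intervals; filled circles passed an adjusted p under 0.05, orange diamonds are the values under library size alone, and triangles are bounds for Gpx3, which had 0 erythroid counts. Gpx1 and Prdx2 show the largest erythroid rises over endothelial libraries, at 4.97 and 4.96.

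The order of the genes within a population was read on the per-kilobase scale. In double positive libraries it ran Gpx3 at 1722 ± 305 CPM per kilobase, Gpx1 at 728 ± 143, then Gpx4 at 299.6 ± 13.3, Prdx1 at 298 ± 21.4 and Prdx2 at 289.8 ± 84.0, which did not differ beyond their spread (SD, n = 2). In erythroid libraries it ran Gpx1 at 4299 ± 249 CPM per kilobase, Prdx2 at 1660.3 ± 54.7, Prdx3 at 519 ± 66.6 and Gpx4 at 241 ± 11.98, each apart from the next beyond its SD (n = 3). The endothelial order began with Gpx3 at 165 ± 35.3, Gpx1 at 138 ± 25.9 and Prdx1 at 137 ± 16.8 CPM per kilobase, which lay within each other's spread (n = 3). With coding length in place of merged exons, Gpx3 and Gpx1 stayed first in double positive and Gpx1 and Prdx2 first in erythroid libraries. The next erythroid places were then taken by Prdx6 at 1340 and Prdx3 at 994 CPM per kilobase of coding sequence, with Gpx4 sixth at 549. Prdx1 then led the endothelial order at 698 CPM per kilobase of coding sequence, ahead of Gpx3 at 440.1 and Gpx1 at 329.

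Genes with the most similar profile were read from all tested genes, by the root mean square difference of log2 CPM after centring each gene over the 8 libraries. The nearest to Cat were the superoxide dismutase genes Sod2 and Sod1 at 0.15 and 0.16, and Sod1, at 0.15, was the second nearest to Gpx4 after the respiratory chain gene Ndufs6 (0.14). Sepw1, which encodes selenoprotein W, was nearest to Prdx6 (0.18). Prdx2 was nearest to Rbm38, an RNA-binding protein gene, at 0.21, and Prdx3 to Nars, an asparaginyl-tRNA synthetase gene, and Slc25a39, a mitochondrial carrier gene, at 0.21 and 0.23. Prdx1 was nearest to Tor1aip2 and Spcs1 at 0.04 and 0.12, and Prdx4 to Atad1 and Tmf1 at 0.17 and 0.18. Gpx1 was nearest to Scarletltr and Asb17os at 0.18 and 0.22, genes that averaged only 13.7 and 12.8 CPM in erythroid libraries. Both were at 0 CPM in endothelial libraries, where Gpx1 averaged 198 CPM. Their endothelial log2 values came from the small count added before taking logs, so these distances are uncertain. Scarletltr was also the second nearest to Prdx2 (0.22), with the same limit, and Prr13 to Prdx6 (0.19). The closest profiles to Gpx3 were farther off, Tmem37 at 0.84 and Cd63 at 0.89, and both of those were also at 0 CPM in erythroid libraries. With 3 populations in 8 libraries, these distances mostly measure the 3 population means.

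Enzymes that recharge and feed the peroxidases, read from lists chosen with earlier results of these data known, changed gene by gene. Of 73 listed genes 64 were tested. Erythroid against endothelial libraries, 17 passed higher and 10 lower (26.6% and 15.6%, against 14.4% and 26.6% of all tested genes). Double positive against endothelial libraries, 21 were higher and 3 lower (32.8% and 4.69%, against 14.6% and 6.92%). Without double positive replicate 7 or replicate 8 these were 12 and 0. Double positive against erythroid libraries, 22 were higher and 8 lower (34.4% and 12.5%), close to the 31.5% and 10.6% of all tested genes. Without double positive replicate 7 they were 13 and 5, and without replicate 8 they were 14 and 6. The median log2 differences were 0.27, 0.60 and 0.92, against −0.36, 0.06 and 0.71 over all tested genes, and under library size alone the counts were 7 higher and 32 lower, 14 and 5, and 40 and 5.

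In the thioredoxin system, which recharges most peroxiredoxins, erythroid against endothelial libraries gave 2 rises and 2 falls among 10 genes, or 1 and 6 under library size alone. Txnrd2, the mitochondrial thioredoxin reductase, stood at 172 ± 12.4 CPM in erythroid and 31.6 ± 11.6 CPM in endothelial libraries (SD, n = 3 each; adjusted p = 0.000289, edgeR). Double positive libraries were far lower than erythroid libraries, at 21.8 ± 6.01 CPM (n = 2, adjusted p = 0.000343, edgeR). Txnip, which binds and inhibits thioredoxin, averaged 0.529 ± 0.916 CPM in erythroid and 289 ± 75.1 CPM in endothelial libraries, from 5 and 5777 counts (adjusted p = 1.44e-05, edgeR). Txn1, the cytosolic thioredoxin, averaged 877 ± 124 CPM in double positive, 384 ± 38.3 CPM in erythroid and 234 ± 43.4 CPM in endothelial libraries. Its rise of 3.75-fold in double positive over endothelial libraries passed (adjusted p = 0.000232, edgeR), and that in erythroid libraries turned to a fall under library size alone. Between double positive and endothelial libraries 1 gene of the list was higher and 2 lower, with 0 lower without double positive replicate 7 or 8. Between double positive and erythroid libraries 3 were higher and 1 lower, or 5 and 1 under library size alone. The rises there were 2 without either double positive replicate, or without erythroid replicate 4 or 5.

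Glutathione synthesis and reduction genes rose in 6 of 12 tested cases and fell in 1 in erythroid against endothelial libraries, but rose in 2 and fell in 5 under library size alone. They rose in 9 and fell in 0 of 12 in double positive against endothelial libraries, where 14.6% of all genes were higher. The rises were 5 without double positive replicate 7, 6 without replicate 8 and 6 under library size alone. Against erythroid libraries 4 were higher and 2 lower, or 7 and 1 under library size alone. Gclm, the modifier subunit of the first enzyme of glutathione synthesis, stood at 49.1 ± 9.20 CPM in double positive (n = 2), 289 ± 24.8 CPM in erythroid (n = 3) and 6.97 ± 2.74 CPM in endothelial libraries (n = 3). It was 41.2-fold higher in erythroid than in endothelial libraries and 7.01-fold higher in double positive than in endothelial libraries. Glrx5, which works in mitochondrial iron-sulfur cluster assembly, was 15.7-fold higher in erythroid than in endothelial libraries. The thiol transferase gene Glrx went the other way, at 307 ± 5.68 CPM in double positive, 9.78 ± 3.40 CPM in erythroid and 34.1 ± 12.4 CPM in endothelial libraries, and Gsto1 was 8.96-fold higher in double positive than in endothelial libraries. Each of these named changes passed (edgeR), with adjusted p from 4.97e-06 for Gclm in erythroid libraries to 0.00218 for Glrx in erythroid libraries.

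NADPH supplies the electrons for both systems, and its genes split. In erythroid against endothelial libraries 2 of 10 were higher and 3 lower, and 1 and 6 under library size alone. Taldo1, transaldolase of the pentose phosphate pathway, stood at 437 ± 57.8 CPM in erythroid and 101 ± 5.96 CPM in endothelial libraries, 4.31-fold higher (adjusted p = 1.44e-05, edgeR). Idh2, the mitochondrial isocitrate dehydrogenase, stood at 366 ± 26.4 CPM in double positive (n = 2), 17.6 ± 2.73 CPM in erythroid (n = 3) and 306 ± 30.4 CPM in endothelial libraries (n = 3), a 17.3-fold fall in erythroid against endothelial libraries. In double positive libraries 1 was higher and 1 lower than in endothelial libraries, and both calls were lost without double positive replicate 7 or 8. Against erythroid libraries 4 were higher and 2 lower, or 7 and 2 under library size alone. Tkt, transketolase, averaged 47.5 ± 2.29 CPM in double positive against 224 ± 34.5 CPM in erythroid libraries (adjusted p = 0.000153, edgeR).

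Superoxide dismutases make peroxide from superoxide. The list of 4 genes holds Sod1, Sod2, Sod3 and Ccs, the copper chaperone of Sod1. Erythroid against endothelial libraries, Sod1 and Sod2 rose, and in double positive against endothelial libraries all 4 rose. Sod1, the cytosolic enzyme, stood at 1294 ± 84.5 CPM in double positive, 1347 ± 16.1 CPM in erythroid and 352 ± 18.0 CPM in endothelial libraries, and Sod2, the mitochondrial enzyme, at 143 ± 0.0679, 172 ± 12.2 and 44.9 ± 6.52 CPM in the same order. Both passed as erythroid rises (adjusted p = 3.19e-06 and 3.78e-05, edgeR), that of Sod2 not under library size alone. Sod3, the secreted enzyme, had 786 counts in double positive libraries and 0 in both other populations, at least 272-fold above the erythroid and at least 514-fold above the endothelial libraries (adjusted p = 0.000579 and 0.0011, edgeR). Against erythroid libraries, double positive libraries gave 2 rises, Sod3 and Ccs, and 0 falls. The rises were 1 without double positive replicate 7, replicate 8 or erythroid replicate 6, and 4 under library size alone. The 12 visceral endoderm markers and the 10 mesenchyme and mesothelium markers moved with Sod3 as they did with Gpx3, and their part was not tested.

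A list of 10 genes held regulators of antioxidant genes together with Nqo1, a quinone reductase, and Hmox1, both enzymes and known targets of such regulators. Erythroid against endothelial libraries gave 4 rises (Nfe2, Mafk, Foxo3 and Nqo1) and 1 fall (Hmox1), or 2 and 4 under library size alone. Nfe2, the erythroid relative of the stress factor Nrf2, stood at 20.2 ± 10.7 CPM in double positive, 290.03 ± 16.1 CPM in erythroid and 1.03 ± 1.79 CPM in endothelial libraries. Its erythroid rise over endothelial libraries passed (adjusted p = 0.000182, edgeR). Hmox1, the heme-degrading oxygenase, had 943 counts in double positive, 1 in erythroid and 3568 in endothelial libraries. The erythroid level was 1885-fold below the endothelial level, with a 95% counting interval of 338 to 74481. The macrophage markers were all 12 at 0 in erythroid libraries and summed to 1426 to 3472 CPM in endothelial libraries. They summed to 106 and 176 CPM in double positive libraries, where Hmox1 averaged 92.7 CPM against 182 CPM in endothelial libraries. The 12 endothelial markers followed the same order of populations. Their sums were 1.96 to 9.09 CPM in erythroid, 767 and 987 CPM in double positive and 5238 to 7278 CPM in endothelial libraries. The part of either set was not tested. Nfe2l2, which encodes Nrf2, and its partner Keap1 did not pass between erythroid and endothelial libraries. Double positive libraries gave 1 rise and 0 falls against endothelial libraries, a rise of Nfe2. That call was lost with DESeq2, in the fit to the compared populations alone and without double positive replicate 8. Against erythroid libraries, double positive libraries gave 1 rise and 3 falls. The falls were 0 without double positive replicate 7 and 1 without replicate 8, and library size alone gave 4 rises and 1 fall.

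The selenocysteine machinery, which Gpx1, Gpx3 and Gpx4 need, was read from 6 genes, of which 0 were lower in any comparison. In erythroid against endothelial libraries 1 was higher. In double positive libraries 2 were higher than in endothelial libraries and 2 were higher than in erythroid libraries. Without double positive replicate 7 or replicate 8, the count was 1 against endothelial and 0 against erythroid libraries. Sephs2, which makes the selenium donor, averaged 163 ± 2.93 CPM in double positive, 84.0 ± 2.18 CPM in erythroid and 30.7 ± 9.79 CPM in endothelial libraries, but its erythroid rise turned under library size alone. Of 10 genes of peroxisome import, through which catalase reaches its compartment, double positive libraries gave 3 rises and 0 falls against endothelial libraries. There were 0 rises without double positive replicate 7, without replicate 8 and under library size alone, and 1 without any one endothelial replicate. Of the 10 other peroxidases only Gpx7 and Gpx8, enzymes of the endoplasmic reticulum, were tested. Both were at 0 in erythroid libraries and at 15.2 ± 2.18 and 11.3 ± 5.04 CPM in endothelial libraries, at least 53.7-fold and 38.4-fold lower in erythroid libraries. In double positive libraries they averaged 15.9 ± 5.74 and 11.9 ± 5.98 CPM, at least 55.3-fold and 41.1-fold higher than in erythroid libraries.

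**Figure D5:**
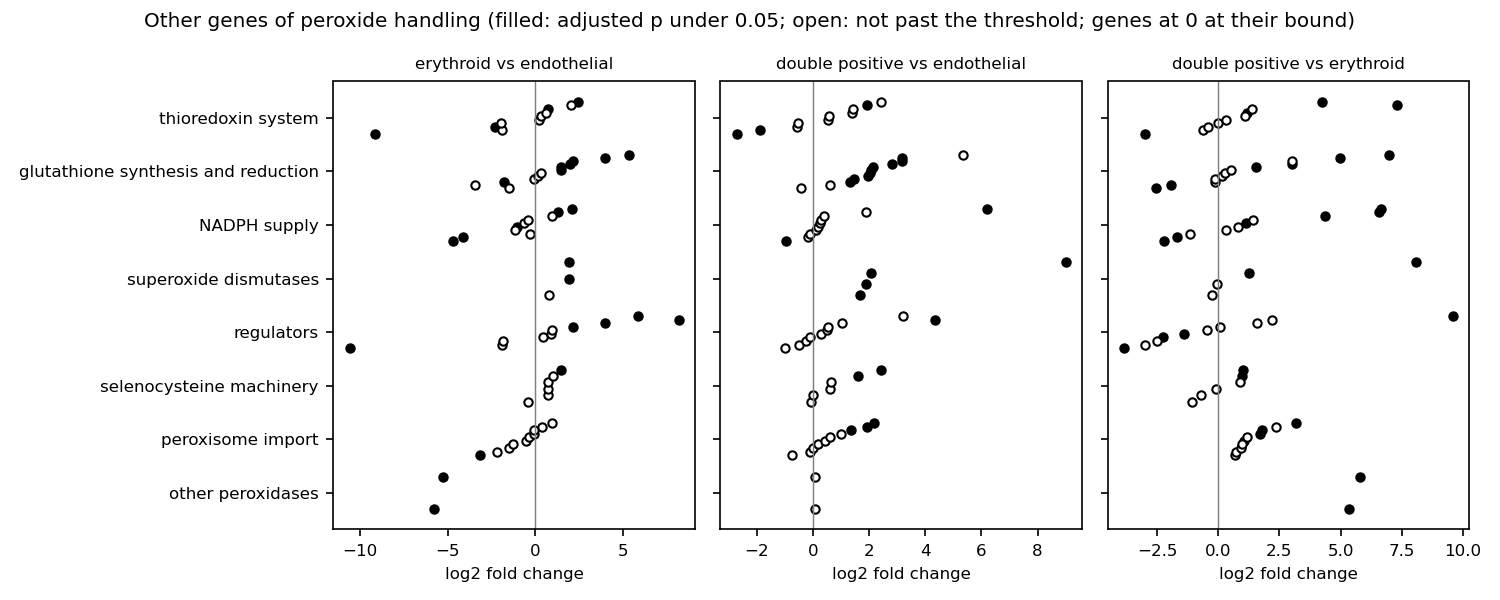
Each point is a gene of the lists on the left, placed by its log2 fold change in the 3 comparisons; filled points passed an adjusted p under 0.05, and genes with 0 counts in 1 population stand at their bound. Superoxide dismutases lie to the right of 0 in double positive against endothelial libraries, and Gpx7 and Gpx8 lie at the left in erythroid against endothelial libraries.

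Upstream sequence was read for members that differ in pattern, from RefSeq windows of the GRCm38.p6 build that end at the gene start, of which 9 of the 10 genes had at least 1. Printed are the bases free of annotated exons for Prdx3 and Cat, which were higher in erythroid than in endothelial libraries, for Prdx1, which did not pass, and for Gpx3, which had no erythroid count. Capitals mark, on either strand, matches to the GATA letters AGATAA as well as AGATAG and also TGATAA as well as TGATAG, to the CACC box CCNCNCCC, or to the antioxidant element TGACNNNGC, and overlapping matches run together.
Prdx3, chr19:60874557-60874788, minus strand: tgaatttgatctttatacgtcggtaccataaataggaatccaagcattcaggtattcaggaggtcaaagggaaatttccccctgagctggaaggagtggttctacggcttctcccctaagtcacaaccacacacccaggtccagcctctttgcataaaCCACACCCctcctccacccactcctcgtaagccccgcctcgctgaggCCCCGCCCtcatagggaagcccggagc
Cat, chr2:103485161-103485403, minus strand: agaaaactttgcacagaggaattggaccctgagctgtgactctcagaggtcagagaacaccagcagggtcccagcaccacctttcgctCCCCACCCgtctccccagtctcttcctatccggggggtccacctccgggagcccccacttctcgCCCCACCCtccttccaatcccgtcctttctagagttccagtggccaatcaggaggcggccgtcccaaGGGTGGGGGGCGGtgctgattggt
Prdx1, chr4:116685349-116685543, plus strand: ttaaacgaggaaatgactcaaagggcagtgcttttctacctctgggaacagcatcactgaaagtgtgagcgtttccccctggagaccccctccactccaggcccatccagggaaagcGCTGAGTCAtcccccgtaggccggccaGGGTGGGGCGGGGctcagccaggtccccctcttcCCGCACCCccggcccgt
Gpx3, chr11:54902604-54902771, plus strand: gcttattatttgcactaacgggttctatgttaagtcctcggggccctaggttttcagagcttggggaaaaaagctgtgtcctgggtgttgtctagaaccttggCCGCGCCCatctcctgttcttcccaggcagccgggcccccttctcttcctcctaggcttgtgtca
The RefSeq start of Gpx3 lies inside the GENCODE gene span given above. In the full 250 bases before the start, some of them in annotated exons and not printed, Prdx3 had 3 CACC box matches, Cat 4, Prdx1 3 and Gpx3 2. The antioxidant element was found once, in Prdx1. No GATA match lay in the windows of these 4 genes, nor in those of Prdx2, which had 2 CACC box matches, or of Gpx1, which had 0. Gpx4, also higher in erythroid than in endothelial libraries, had GATA matches in 3 of its 4 RefSeq windows (2, 1 and 1 matches). Its windows whose exon-free bases begin at 80053315 and 80053409 overlap, and the same TGATAA was counted in both. Of 32851 RefSeq windows of this length, 26.5% held a GATA match, 45.9% a CACC box match and 10.2% an antioxidant element. No match of one motif overlapped a match of another. A match is a description of letters, and their absence says only that these letters are not in this window.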

How the data were processed

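Polyadenylated RNA of 8 sorted pools was amplified by Smart-seq2 with 14 PCR cycles, per the labels' protocols. Reads carry no molecular identifiers, and intervals and floors therefore cover only counting error. The deposited values are unscaled read counts for each gene symbol and library. HTSeq, FastQC and the build mm10 are named in the submitters' processing notes. What aligner, annotation and strand setting were used is not given in the sources used here. The members and gene lists were chosen with earlier results of these data known.

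Counts were fitted in edgeR 4.0.16 (R 4.3.3): filterByExpr with a minimum count of 10 left 12136 genes, with TMM factors, 1 mean per population over all 8 libraries, a robust quasi-likelihood F test, and Benjamini-Hochberg adjustment with a threshold of 0.05, two-sided. Intervals of log2 differences use the test's degrees of freedom. The fit was tested on simulated data. Alternatives were DESeq2 1.42.0, limma-voom 3.58.1, RLE factors, library size alone, globin rows removed, no filter, a minimum count of 50, a fit to the compared populations alone, and each replicate left out. Ratios within a library used a pseudocount of 0.5 count and exact permutation tests. Gene positions and lengths come from GENCODE M21 (GRCm38), where a length is that of the merged exons of all transcripts. All 10 members are named. Of each list, up to 3 genes with the smallest adjusted p per comparison could be named. A gene from outside that rule (Nfe2l2, Keap1, Nqo1, Hbb-y) was chosen after its values were seen. No replicates held identical values. A result for 1 listed gene is not reported here.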

Additional observations from a re-analysis of the deposited data

How the results depend on the processing

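No paired analysis was made, because the labels do not say which pools, if any, came from the same embryo. Of the values of single members under the alternatives, 377 kept their direction and their side of the threshold, 4 lost the threshold, 9 passed it and 10 turned, all 10 in comparisons that had not passed; the cause was not tested. Those that turned are Prdx4 in double positive against endothelial libraries under library size alone (−0.17), Prdx5 in the same comparison with DESeq2 (−0.0242), RLE factors (−0.0246) and library size alone (−0.52), and Cat in double positive against erythroid libraries with DESeq2 (0.0169), RLE factors (0.0170) and library size alone (0.88). With 1 replicate left out, Prdx5 ran from −0.00940 to 0.25 and Cat from −0.0695 to 0.0505 in those comparisons. Library size alone called 7690 genes in erythroid against endothelial libraries in place of 4977, 420 higher and 7270 lower against 1745 and 3232. It gave 1118 higher and 1901 lower in double positive against endothelial libraries, against 1776 and 840, and 5760 and 473 against erythroid libraries, against 3820 and 1283; DESeq2 gave 1627 and 1415 in double positive against endothelial libraries. With 1 library left out, 977 to 2263 genes and 12 to 22 list genes were called in double positive against endothelial libraries (2616 and 24 with all), and 2924 to 4692 genes and 18 to 31 list genes against erythroid libraries (5103 and 30 with all). The low ends came without double positive replicate 7 or 8, which leaves 1 library of that population, assumed to vary like the others. The call of the 10 members changed by at most 1 with any replicate left out. Coding length cancels from a difference of ratios and left it as it was. With 2 or 3 pools of 24 or 25 cells, small changes were not detectable.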
